A study of Mus musculus with 6 samples.

Results

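The renin-angiotensin system genes described here are Agt, Ace, Enpep, Agtr1a, Agtr2, Mas1 and Atp6ap2. They were chosen by symbol, as the row of the deposited expression table that carries each name. Of these 7 genes 6 had a row among the 25901 in the table. The hearts came from 3 SRAKO mice and 3 wild-type (WT) mice, and mice of both genotypes had received isoproterenol, a beta-adrenergic agonist, over 4 weeks. The submitters name the steroid receptor RNA activator (SRA, encoded by Sra1) as the target of the study. The labels give no strain, sex, age, litter or allele design, and untreated hearts were not analysed here, so all 6 hearts carry the isoproterenol treatment. RNA of the whole heart was selected for poly(A) with oligo(dT) beads.

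The renin-angiotensin system makes the peptide hormone angiotensin II from a precursor protein, angiotensinogen. Renin cuts the precursor to angiotensin I, and angiotensin-converting enzyme trims that to angiotensin II, which raises blood pressure and promotes growth and fibrosis in the heart through its type 1 receptor. Peptidases and the receptor Mas form an opposing arm, and part of the system is expressed within the heart itself.

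The peptide that these genes make, cut and sense is encoded in Agt. The stretch below is shown because it is the substrate shared by the enzymes among the members. It covers codons 30 to 39 of the annotated transcript, which code for the 10 residues of angiotensin I. It lies at chr8:124564450-124564479 on the minus strand of GRCm38, in exon 2 of 5, and is copied 5′ to 3′ from the GENCODE M21 transcript. Capitals mark the 8 codons of angiotensin II. The lower-case codons at the 3′ end stand for the residues that angiotensin-converting enzyme removes, and the first codon for the aspartate that the aminopeptidase encoded by Enpep removes.
Agt, angiotensin I codons: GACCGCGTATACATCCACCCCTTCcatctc

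Values are FPKM, fragments counted per unit of transcript length and library size, as the authors deposited them, so levels can be set side by side between genes. Judged from the spacing of the lowest values, each heart had 8297 to 13098 aligned bases per kilobase behind 1 FPKM. Sra1 was at 1.96, 1.78 and 2.05 FPKM in SRAKO2365, SRAKO2371 and SRAKO2372, against 4.40, 6.31 and 4.23 in WT2368, WT2379 and WT2378, and the genotypes did not overlap. The Sra1 row joins 6 annotated transcripts, 5 of them of Sra1, and extends beyond the gene, so it may hold RNA of another gene. WT2368 stood apart from the other hearts: it held the lowest value in 44.9% of the 10201 rows tested, against 7.78% to 18.0% for each of the other hearts. The summed FPKM of 8 cardiomyocyte markers was 11815 to 15138 in SRAKO hearts and 12226 to 13430 in WT hearts. Nothing in the labels says that the hearts are separate litters, so p-values measure the spread between these samples.

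Agt and Ace, which encode the precursor and the converting enzyme, were readily measured in every heart, and Agt was the member whose genotypes were separated. Ace was the most abundant member, followed by Agtr1a and Agt, then Atp6ap2, Enpep and Mas1. In limma, a linear model fitted across all tested rows, 0 of the 5 tested members passed the threshold of 0.05 after Benjamini-Hochberg adjustment, where 2 of 10201 rows, 0.0196%, passed. At an unadjusted p under 0.05 there was 1 member, Agt, against 3.46% of all rows (1.9% higher and 1.56% lower in SRAKO hearts). The genotypes did not overlap for 1 of the 5, again Agt, against 8.05% of all rows (4.28% higher and 3.76% lower in SRAKO hearts).

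**Figure D1:**
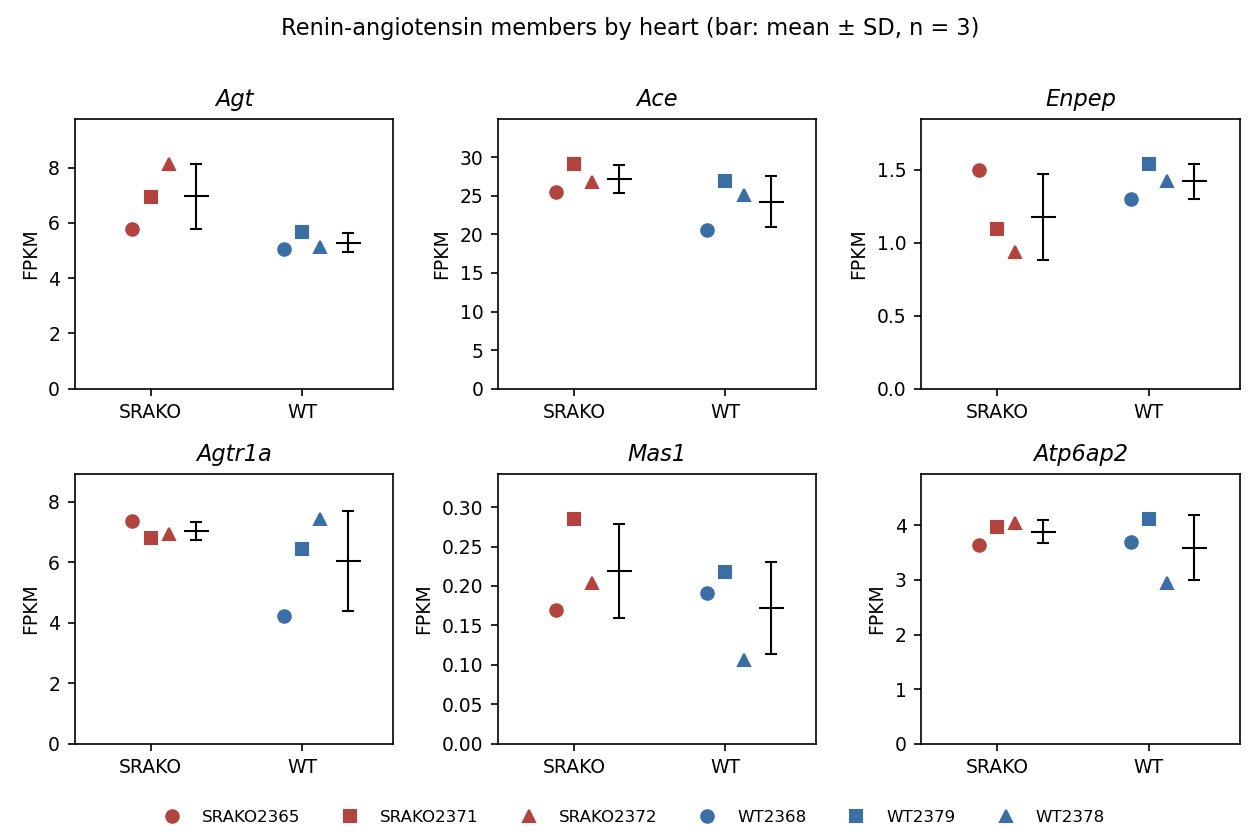
FPKM of 6 renin-angiotensin genes in each heart, SRAKO in red and WT in blue, with 1 symbol per heart and the mean ± SD (n = 3) as a bar beside each group. The SRAKO hearts lie above the WT hearts for Agt (5.79 to 8.14 against 5.06 to 5.67), and the groups overlap for the other 5 genes.

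Agt encodes angiotensinogen, a protein of the serpin family that is made mainly in the liver and also in fat, brain and heart. Its FPKM was 5.79, 6.94 and 8.14 in SRAKO2365, SRAKO2371 and SRAKO2372, against 5.06, 5.67 and 5.13 in WT2368, WT2379 and WT2378. The lowest SRAKO heart lay just above the highest WT heart, and SRAKO2372 was the highest of all. The mean was 6.96 ± 1.18 in SRAKO hearts and 5.29 ± 0.338 in WT hearts (SD, n = 3 each), 132% of WT. The log2 difference of FPKM + 1, SRAKO minus WT, was 0.33 with an SE of 0.12 and a 95% interval of 0.04 to 0.62 (limma, unadjusted p = 0.0300, Benjamini-Hochberg adjusted p = 0.999). A two-sided exact permutation of the genotype labels gave p = 0.1 for the FPKM, and with 3 hearts a group no lower value is possible. Agt did not pass the adjusted test, although each of 3 SRAKO hearts exceeded every WT heart. Among all tested rows, 4.84% had a log2 difference at least as far from 0.

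The excess of Agt was not spread evenly over the SRAKO hearts. Some marker sums of other cells were also highest in SRAKO2371 and SRAKO2372. Not all were: 5 blood markers summed to 1070 and 1088 FPKM in those hearts, against 1397 to 2425 in the others. The summed FPKM of 7 adipocyte markers was 122, 344 and 214 in SRAKO2365, SRAKO2371 and SRAKO2372, against 139, 114 and 138 in WT2368, WT2379 and WT2378. The hearts with the most fat marker RNA, SRAKO2371 and SRAKO2372, were also those with the most Agt. The order between them was reversed, and WT2379, with the most Agt of the WT hearts, had the lowest adipocyte sum. All 6 tested adipocyte markers had a higher mean log2 level in SRAKO hearts, by a median of 0.80, and 0 had an unadjusted p under 0.05 in limma. Ucp1, the uncoupling protein of brown fat, was at 0.834, 98.9 and 51.1 FPKM in SRAKO2365, SRAKO2371 and SRAKO2372, against 2.44, 2.82 and 18.0 in WT2368, WT2379 and WT2378. Without Ucp1 the adipocyte sum was 121, 245 and 162 in SRAKO2365, SRAKO2371 and SRAKO2372, against 136, 112 and 119.7 in WT2368, WT2379 and WT2378, with the same hearts highest. Most of that sum in every heart was Fabp4, which is also an endothelial marker. Fabp4 was at 98.1, 132 and 112 FPKM in SRAKO2365, SRAKO2371 and SRAKO2372, against 108, 86.2 and 82.7 in WT2368, WT2379 and WT2378. No adipocyte marker was at 0 in any heart. Without SRAKO2371 the Agt difference was 0.33, as with all hearts, and without SRAKO2372 it was 0.23.

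Neutrophil and macrophage markers were also highest in hearts with more Agt. The summed FPKM of 5 neutrophil markers was 3.19, 28.2 and 52.5 in SRAKO2365, SRAKO2371 and SRAKO2372, against 1.74, 10.6 and 1.20 in WT2368, WT2379 and WT2378. SRAKO2372 was highest and SRAKO2371 second, as for Agt. Of the 3 tested neutrophil markers, S100a8 and Retnlg had an unadjusted p under 0.05 and S100a9 did not (limma, unadjusted p = 0.0451, 0.0447 and 0.0681), against 3.46% of all rows, and 0 passed the adjusted test. Among the 5 markers S100a8 and Cxcr2 were listed at 0 in WT2378 and Retnlg at 0 in WT2368. Macrophage markers summed over 7 genes to 101, 103 and 114 FPKM in SRAKO2365, SRAKO2371 and SRAKO2372, against 85.3, 99.3 and 94.2 in WT2368, WT2379 and WT2378. These sums did not overlap, which rested on C1qa: without it they were 65.3 to 75.3 in SRAKO hearts and 61.4 to 67.2 in WT hearts. Of the 7 macrophage markers 6 had a higher mean log2 level in SRAKO hearts, and 0 had an unadjusted p under 0.05 in limma. The part of fat cells, neutrophils or macrophages in the Agt values was not tested. In whole-heart RNA, more cells of a type and more RNA per cell cannot be told apart.

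**Figure D2:**
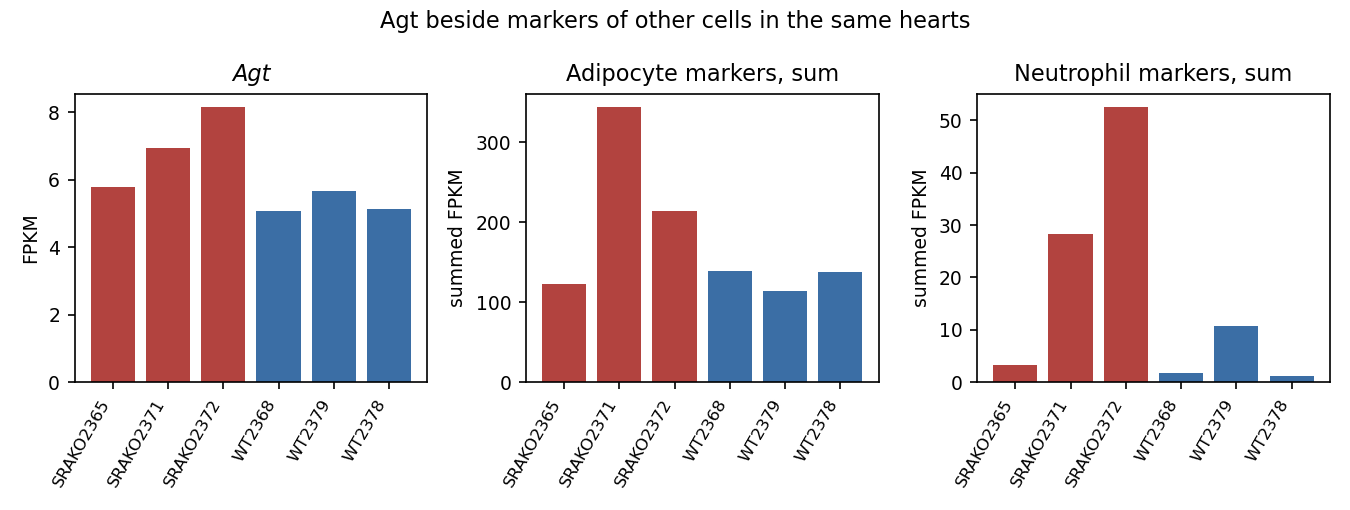
FPKM of Agt and summed FPKM of 7 adipocyte and 5 neutrophil markers in each heart, as bars from 0, SRAKO in red and WT in blue. SRAKO2371 and SRAKO2372 hold the highest values in all 3 panels, while SRAKO2365 lies within the WT range for both marker sums.

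The Agt row holds a single transcript, which spans chr8:124556534-124569706 on the minus strand of GRCm38. The promoter below is shown because Agt is the member whose genotypes did not overlap. It covers 250 bases before and 50 after the RefSeq start site, chr8:124569657-124569956 on the minus strand of GRCm38.p6, read 5′ to 3′ along the gene. Capitals mark TATAAA, the core of a TATA box, which begins 30 bases before the start. TATAAA was found on either strand in 13.6% of 32851 RefSeq promoters of this length. The half-site of steroid receptors TGTTCT, present in 19.0% of those promoters on either strand, has no match in this window. Among the members, 6 of 7 had a RefSeq promoter.
Agt promoter: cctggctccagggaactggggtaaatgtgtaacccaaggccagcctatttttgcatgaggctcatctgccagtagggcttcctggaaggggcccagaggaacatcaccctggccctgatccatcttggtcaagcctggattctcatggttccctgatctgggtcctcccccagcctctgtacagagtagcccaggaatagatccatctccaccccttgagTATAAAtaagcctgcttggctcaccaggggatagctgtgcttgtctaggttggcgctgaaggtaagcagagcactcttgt

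Ace encodes angiotensin-converting enzyme, a peptidase on the surface of endothelial cells that forms angiotensin II and also inactivates bradykinin. Its FPKM was 25.6, 29.2 and 26.8 in SRAKO2365, SRAKO2371 and SRAKO2372, against 20.5, 27.0 and 25.1 in WT2368, WT2379 and WT2378. WT2368 was the lowest heart and the other 5 lay close together, so the groups overlapped. The mean was 27.2 ± 1.83 in SRAKO hearts and 24.2 ± 3.30 in WT hearts (SD, n = 3 each). The log2 difference was 0.17 with a 95% interval of -0.12 to 0.46 (limma, unadjusted p = 0.220, adjusted p = 0.999). Without WT2368 it was 0.06. The Ace row joins 4 annotated transcripts with 1 assembled by StringTie over chr11:105967945-105989964 on the plus strand. The annotated coding transcripts begin at position 105967945, the start of the long somatic enzyme, and further inside the gene at 105971323 and 105975208. The last of these is the short form known from the testis, and the row does not separate it from the long one.

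Endothelial markers, the defining genes of the cells that carry most cardiac Ace, summed to 279 to 293 FPKM in SRAKO hearts and 265 to 276 in WT hearts. That separation rested on Fabp4, which is also a fat cell gene. Without Fabp4 the other 7 summed to 161 to 181 in SRAKO hearts and 168 to 183 in WT hearts, and 6 of these 7 had a lower mean log2 level in SRAKO hearts.

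Enpep encodes glutamyl aminopeptidase (aminopeptidase A), which turns angiotensin II into angiotensin III and in the heart is typical of pericytes. Its FPKM was 1.50, 1.09 and 0.937 in SRAKO2365, SRAKO2371 and SRAKO2372, against 1.297, 1.54 and 1.42 in WT2368, WT2379 and WT2378. SRAKO2371 and SRAKO2372 lay below every WT heart, while SRAKO2365 was within the WT range, so the groups overlapped. The mean was 1.18 ± 0.292 in SRAKO hearts and 1.42 ± 0.122 in WT hearts (SD, n = 3 each). Enpep was the 1 tested member with a lower mean in SRAKO hearts, with a log2 difference of -0.16 and a 95% interval of -0.43 to 0.10 (limma, unadjusted p = 0.198, adjusted p = 0.999). The difference was -0.08 without SRAKO2372 and -0.27 without SRAKO2365. The summed FPKM of 7 pericyte markers was 148 to 149 in SRAKO hearts and 137 to 146 in WT hearts. Without Rgs5, the most abundant of them, the other 6 summed to 57.8 to 65.8 in SRAKO hearts and 52.7 to 65.6 in WT hearts, which overlap. Of the 7, 6 had a higher mean log2 level in SRAKO hearts and 0 had an unadjusted p under 0.05 in limma. Abcc9 was the 1 marker without overlap, lower in SRAKO hearts, against 8.05% of all rows without overlap and 3.76% in that direction. Enpep lies at chr3:129269175-129332720 on the minus strand, and 1 of the 4 transcripts in its row is annotated as protein coding.

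Agt and Enpep held opposite orders within the SRAKO group. SRAKO2372 had the most Agt and the least Enpep of all 6 hearts, and SRAKO2365 had the least Agt and the most Enpep among the SRAKO hearts. Among WT hearts WT2379 had the most of both.

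Agtr1a encodes the main angiotensin II type 1 receptor of the mouse, a Gq-coupled receptor present on fibroblasts and mural cells of the heart. Its FPKM was 7.37, 6.79 and 6.93 in SRAKO2365, SRAKO2371 and SRAKO2372, against 4.22, 6.44 and 7.44 in WT2368, WT2379 and WT2378. The SRAKO hearts were alike, with an SD of 4.32% of their mean, and the WT hearts were not, with an SD of 27.3% of theirs. WT2368 was again the lowest heart and WT2378 the highest. The mean was 7.03 ± 0.303 in SRAKO hearts and 6.03 ± 1.65 in WT hearts (SD, n = 3 each), and the log2 difference was 0.22 with a 95% interval of -0.18 to 0.62 (limma, unadjusted p = 0.239, adjusted p = 0.999). Without WT2368 it was 0.02, and without WT2378 it was 0.36. The summed FPKM of 8 fibroblast markers was 522 to 541 in SRAKO hearts, against 380, 539 and 515 in WT2368, WT2379 and WT2378. Most of that low sum in WT2368 was Gsn, and 3 of the 8 markers were lowest in that heart. Without Gsn the sum was 213 to 221 in SRAKO hearts, against 189, 219.7 and 198 in WT2368, WT2379 and WT2378. The summed FPKM of 6 smooth muscle markers was 247 to 252 in SRAKO hearts, against 183, 209 and 271 in WT2368, WT2379 and WT2378, with the same lowest and highest heart as Agtr1a. Most of that sum was Acta2. Acta2 and Cnn1 were also highest in WT2378, but Myh11, Mylk and Smtn were highest in SRAKO2372 and Tagln in SRAKO2371. Of these 6, 5 had a higher mean log2 level in SRAKO hearts, Myh11 and Mylk did not overlap between genotypes (8.05% of all rows), and Myh11 had an unadjusted p under 0.05 (limma, unadjusted p = 0.0142, log2 difference 0.42; 3.46% of all rows). The part of these cells in the Agtr1a values was not tested. The row lies at chr13:30336441-30382867 on the plus strand and joins 6 annotated transcripts. Its near-identical copy Agtr1b had no row, and whether reads of the copies were counted together was not tested.

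Agtr2, on the X chromosome, encodes the type 2 receptor, which opposes the type 1 receptor and is abundant mainly before birth. No row carried its symbol and neither of its 2 annotated transcripts was listed in any row, so Agtr2 was not analysed here and no level or limit can be given.

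Mas1 encodes Mas, the receptor for angiotensin-(1-7). Its FPKM was 0.169, 0.285 and 0.203 in SRAKO2365, SRAKO2371 and SRAKO2372, against 0.191, 0.218 and 0.106 in WT2368, WT2379 and WT2378. The groups overlapped, and the highest heart held 2.68 times the level of the lowest. These levels rest on 1079 to 3096 aligned bases per kilobase. They were under the filter, 1 FPKM or more in 3 or more hearts, so Mas1 took no part in the adjusted test. The mean was 0.219 ± 0.0596 in SRAKO hearts and 0.172 ± 0.0581 in WT hearts (SD, n = 3 each; exact two-sided permutation test, p = 0.5). Mas1 lies at chr17:12841079-12868143 on the minus strand.

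Atp6ap2 encodes the (pro)renin receptor, which binds renin and its precursor and is also an accessory subunit of the vacuolar proton pump. Its FPKM was 3.64, 3.98 and 4.03 in SRAKO2365, SRAKO2371 and SRAKO2372, against 3.69, 4.12 and 2.95 in WT2368, WT2379 and WT2378. WT2378 was the lowest and WT2379 the highest, so the SRAKO hearts lay inside the WT range. The mean was 3.89 ± 0.211 in SRAKO hearts and 3.59 ± 0.593 in WT hearts (SD, n = 3 each). The log2 difference was 0.10 with a 95% interval of -0.17 to 0.36 (limma, unadjusted p = 0.419, adjusted p = 0.999). Without WT2378 it was -0.0059, and without WT2379 it was 0.18. Atp6ap2 lies at chrX:12587801-12617049 on the plus strand. The other accessory subunit of the pump, Atp6ap1, was more abundant, at 30.98, 29.8 and 30.7 FPKM in SRAKO2365, SRAKO2371 and SRAKO2372, against 17.3, 33.2 and 32.8 in WT2368, WT2379 and WT2378.

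Across the 6 hearts the members kept a nearly fixed order of level. Ace averaged 25.7 FPKM and stood above Agtr1a in 6 of 6 hearts, with ranges that did not overlap, and 90.5% of tested rows had a lower mean than Ace. Agtr1a averaged 6.53 and Agt 6.12, their ranges overlapped, and Agtr1a was the higher of them in 3 of 6 hearts, so their order cannot be told from their spread. Atp6ap2 averaged 3.74, below Agt in 6 of 6 hearts. Enpep averaged 1.299 and Mas1 0.196, and each lay below the member above it in 6 of 6 hearts with no overlap of ranges.

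**Figure D3:**
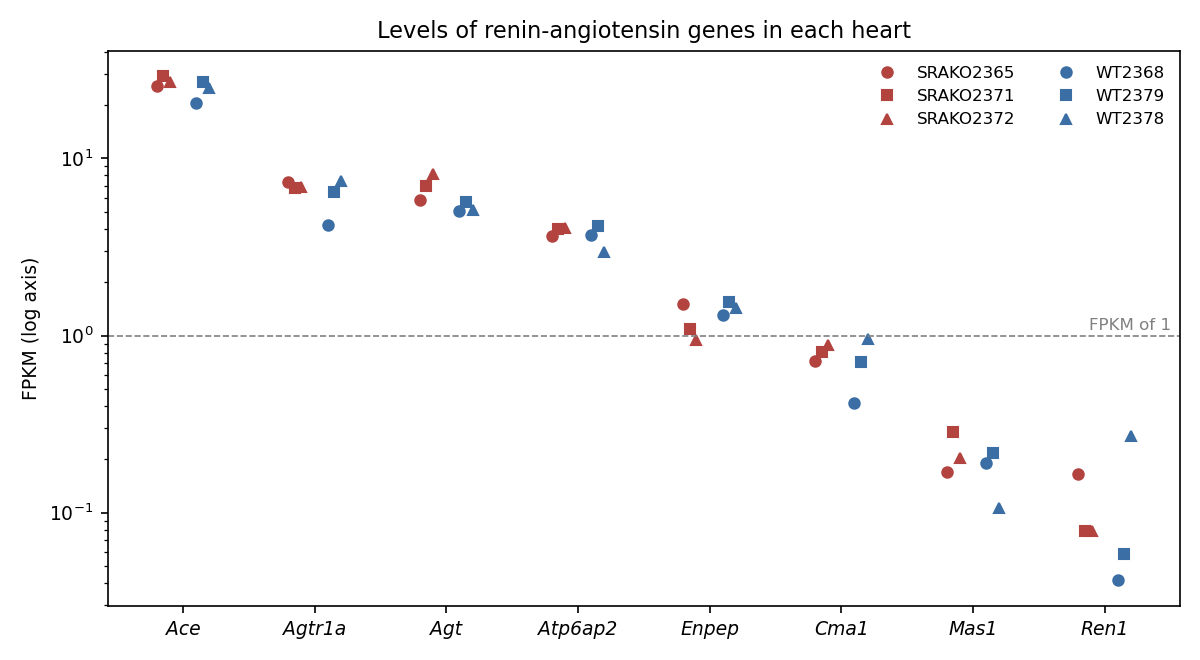
FPKM on a log axis of the 6 measured members and of Cma1 and Ren1 in each heart, SRAKO in red left of WT in blue, with 1 symbol per heart. Ace lies above 20 in every heart, Agtr1a and Agt between 4.22 and 8.14, and Cma1, Mas1 and Ren1 below the dashed line at an FPKM of 1.

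Genes that act next to the members were mostly low or alike between genotypes. Renin itself, Ren1, was near the floor of the table, at 0.165, 0.0791 and 0.0787 FPKM in SRAKO2365, SRAKO2371 and SRAKO2372, against 0.0415, 0.0583 and 0.271 in WT2368, WT2379 and WT2378. These values rest on 344 to 2745 aligned bases per kilobase, and the groups overlapped (exact two-sided permutation test, p = 1, n = 3 each). Cma1, the mast cell chymase that can form angiotensin II without Ace, was at 0.720, 0.807 and 0.879 in SRAKO2365, SRAKO2371 and SRAKO2372, against 0.416, 0.706 and 0.960 in WT2368, WT2379 and WT2378, again with overlap. Of the 9 genes listed as angiotensin-forming enzymes 3 passed the filter, 2 with a higher and 1 with a lower mean log2 level in SRAKO hearts. The highest of these differences was 0.31 for Mcpt4, another mast cell protease.

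Among the 11 degrading and converting enzymes 7 were tested, 5 with a higher and 2 with a lower mean log2 level in SRAKO hearts. Aminopeptidase N (Anpep), which acts after Enpep on angiotensin III, was at 4.92, 4.97 and 5.44 FPKM in SRAKO2365, SRAKO2371 and SRAKO2372, against 3.70, 5.36 and 5.11 in WT2368, WT2379 and WT2378. The prolyl peptidases that yield angiotensin-(1-7) had slightly lower means, 3.13 ± 0.218 in SRAKO hearts and 3.56 ± 0.200 in WT hearts for Prep, and 1.41 ± 0.188 in SRAKO hearts and 1.66 ± 0.140 in WT hearts for Prcp (SD, n = 3 each). The endothelin-converting enzyme Ece1 had the widest difference of the group, 0.23 (limma, unadjusted p = 0.133).

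Of the receptor-associated genes 7 of 11 were tested, 6 with a higher and 1 with a lower mean log2 level in SRAKO hearts. Agtrap, which binds the type 1 receptor and promotes its internalisation, was at 9.47, 8.66 and 8.67 FPKM in SRAKO2365, SRAKO2371 and SRAKO2372, against 6.90, 9.06 and 10.1 in WT2368, WT2379 and WT2378. WT2368 was lowest and WT2378 highest, as for Agtr1a, but the hearts between them were ordered differently. The bradykinin receptor gene Bdkrb2 was below the filter at 0.108, 0.220 and 0.159 in SRAKO2365, SRAKO2371 and SRAKO2372, against 0.228, 0.221 and 0.237 in WT2368, WT2379 and WT2378. The Bdkrb2 groups touched without overlap (exact two-sided permutation test, p = 0.1, n = 3 each). Among tested rows, which do not include Bdkrb2, 3.76% had no overlap in that direction. In the aldosterone arm the mineralocorticoid receptor Nr3c2 was at 1.10, 1.26 and 1.45 in SRAKO2365, SRAKO2371 and SRAKO2372, against 1.301, 1.57 and 1.42 in WT2368, WT2379 and WT2378. Of that list of 6 genes 3 were tested, 2 with a higher and 1 with a lower mean.

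**Figure D4:**
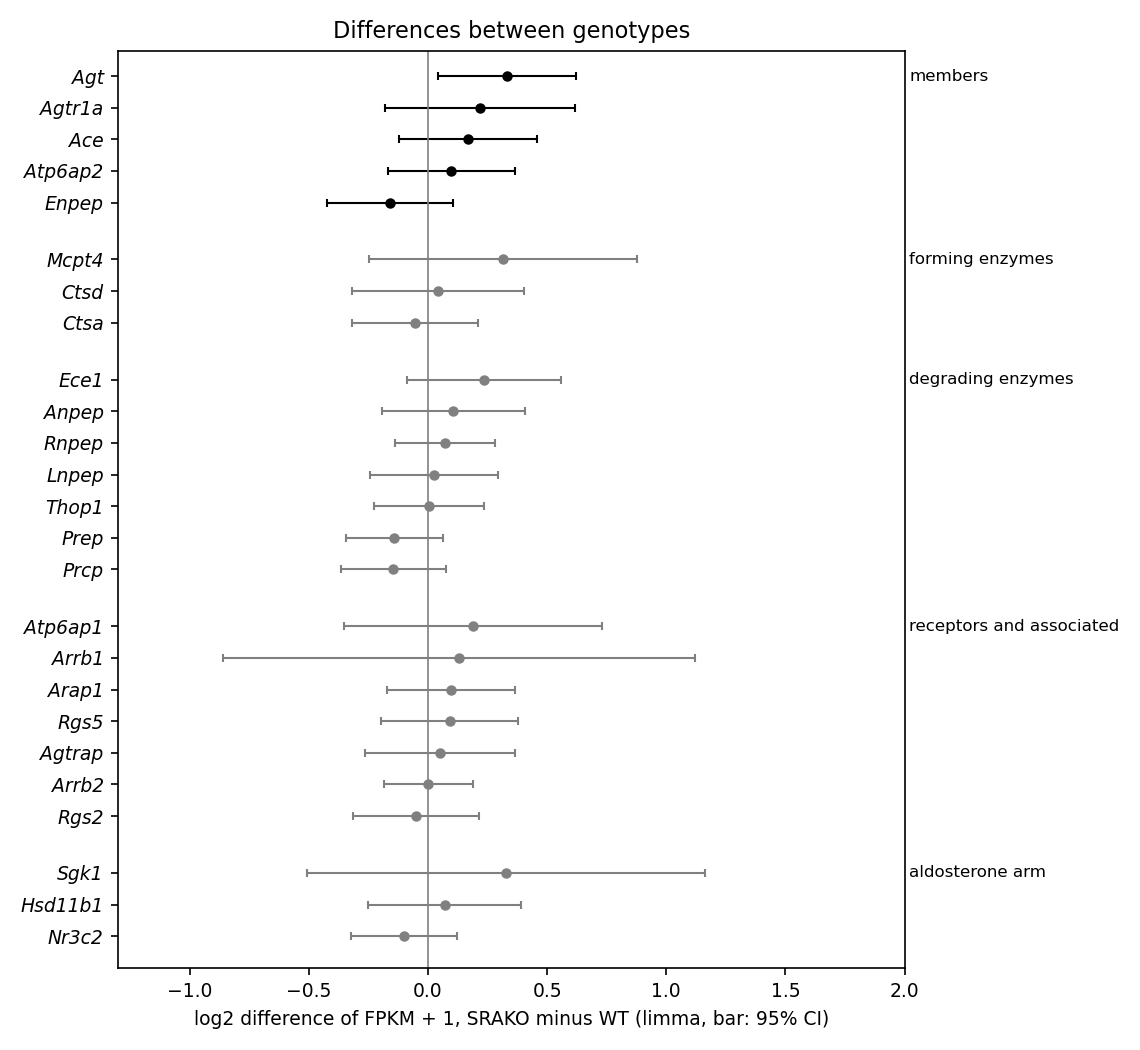
Log2 difference of FPKM + 1, SRAKO minus WT, with the 95% interval of limma, for the 5 tested members in black and for the 20 tested forming enzymes, degrading enzymes, receptor-associated genes and genes of the aldosterone arm in grey. The signalling and angiotensin-responsive lists are not drawn. The interval of Agt, 0.04 to 0.62, is the 1 interval shown that does not reach 0, before any adjustment over the 10201 rows tested.

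Downstream of the receptor, 27 of 33 listed signalling genes were tested, 10 with a higher and 17 with a lower mean log2 level in SRAKO hearts, by a median of -0.04. The median of all 10201 rows was 0.01, and 53.5% of them had a higher mean. Of the signalling genes 0 passed limma with Benjamini-Hochberg adjustment and 0 had an unadjusted p under 0.05. Of these 27, 2 had no overlap between genotypes, named here after their values were seen. Itpr1, the inositol trisphosphate receptor that releases calcium after Gq signals, was at 1.05, 0.874 and 1.16 FPKM in SRAKO2365, SRAKO2371 and SRAKO2372, against 1.31, 1.31 and 1.28 in WT2368, WT2379 and WT2378. The kinase gene Prkce was at 2.61, 2.57 and 1.32 in SRAKO2365, SRAKO2371 and SRAKO2372, against 2.74, 3.34 and 2.63 in WT2368, WT2379 and WT2378. Both were lower in 3 of 3 SRAKO hearts, against 3.76% of all rows with no overlap in that direction.

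Genes known to respond to angiotensin II had lower means more often than higher ones, 14 of 18 tested, with a median log2 difference of -0.16. Postn, the matricellular protein periostin, was the member of that list with an unadjusted p under 0.05 in limma (log2 difference -0.29, unadjusted p = 0.0300, adjusted p = 0.999). That is 1 of 18 tested genes, against 3.46% of all rows, and 0 passed the adjusted test. The 4 with a higher mean included Fos and Egr1, immediate early transcription factors, with log2 differences of 0.76 and 0.95 (limma, unadjusted p = 0.0582 and 0.108). WT2379 held the highest values of several genes with a lower mean in SRAKO hearts, among them Ctgf and Thbs1. Ctgf, a matricellular growth factor, was at 65.4, 87.5 and 68.1 FPKM in SRAKO2365, SRAKO2371 and SRAKO2372, against 37.6, 176.9 and 104.7 in WT2368, WT2379 and WT2378, and the groups overlapped. Without WT2379, 10 of the 18 had a higher mean in SRAKO hearts and the median was 0.07, while without SRAKO2371 the number was 7 of 18. Without WT2368 the number was 3 of 18 and the median -0.30. Ccl2, a chemokine of this list that was below the filter and is named after its values were seen, was at 0.514, 0.460 and 0.286 in SRAKO2365, SRAKO2371 and SRAKO2372, against 0.841, 1.92 and 0.691 in WT2368, WT2379 and WT2378. Every SRAKO heart lay below every WT heart for Ccl2, as for 3.76% of tested rows, which do not include Ccl2. The sum of 7 atrial markers was also highest in WT2379, at 2995.7 to 3532 FPKM in SRAKO hearts, against 2503, 8469 and 3768 in WT2368, WT2379 and WT2378. Most of that sum was Nppa, which is also in the angiotensin-responsive list, and without it the sum was 1060.2 to 1167 in SRAKO hearts, against 853, 1893 and 1299 in WT2368, WT2379 and WT2378. All 7 atrial markers had a lower mean log2 level in SRAKO hearts, by a median of -0.36, and Kcnj3 had an unadjusted p under 0.05 (limma, unadjusted p = 0.0207), against 3.46% of all rows. The part of atrial tissue in this list was not tested.

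Over all the neighbouring lists together, 65 of 92 genes were tested, 29 with a higher and 36 with a lower mean in SRAKO hearts and a median log2 difference of -0.03. Of these 65, 0 passed limma with Benjamini-Hochberg adjustment and 1 had an unadjusted p under 0.05, against 3.46% of all rows. Genotypes did not overlap for 3 of the 65, against 8.05% of all rows. The balance depended on single hearts: without WT2368 18 of the 65 had a higher mean, with a median of -0.09, and without WT2379 38 of the 65 did, with a median of 0.07.

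The rows most like each member in their pattern over the 6 hearts, after subtraction of each genotype's mean, were Scd4 and Znrd1 for Agt (Pearson r of 0.995 and 0.989). They were Ube2e1 and Rpl3-ps1 for Ace (0.999 and 0.998), Adprh and Faf1 for Agtr1a (0.9998 and 0.999), Mark1 and Ralgds for Enpep (0.999 and 0.998), and Smim5 and Med11 for Atp6ap2 (0.996 and 0.995). These correlations rest on fewer free values than the 6 hearts, because each genotype's mean was subtracted. They are given as a description. Of 9074 named rows compared, 494 had r above 0.95 with Agtr1a, 261 with Ace, 43 with Atp6ap2, 38 with Enpep and 35 with Agt. The hearts share library depth and composition across rows, and WT2368 is the low point of both Ace and Agtr1a.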

How the data were processed

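RNA of 3 SRAKO and 3 WT hearts was compared by genotype, as given in the sample titles. The authors deposited FPKM values per gene in 1 table. The tools named in the submitters' processing notes are StringTie 1.3.4d, HISAT2 2.0.4, cutadapt 1.9 and edgeR. Those notes give hg38, a human build, for a table of mouse identifiers. Of 81263 Ensembl transcript identifiers 99.6% matched GENCODE M21 on GRCm38, from which positions were taken, and the build used for alignment is not settled. Strand is not stated, so overlapping genes can share reads. FPKM is not a count, so no count test was run. The aligned bases behind an FPKM were read from the smallest value that at least 4 of the 100 weakest single-transcript rows shared. Between 51.0% and 63.0% of those rows were whole multiples of the step (tolerance 0.05), which counts bases and not reads.

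The 10201 rows that reached 1 FPKM in 3 or more hearts were fitted with limma 3.58.1 (R 4.3.3) to log2(FPKM + 1), by genotype alone with a variance trend and two-sided tests. P-values were adjusted by Benjamini-Hochberg over all tested rows. Folds on this scale are understated for low genes. The fit was tested on simulated data. Exact permutation tests over hearts used scipy 1.17.1. The members and lists were chosen with earlier results of these data known. The genes named are the members, Ren1, Cma1, Agtr1b, Agtrap, Nr3c2 and Bdkrb2 whatever their values, genes of the neighbouring pathway lists (not the marker lists) with an unadjusted p under 0.05, and the 2 nearest patterns per tested member. Other genes are examples chosen after their values were seen. One planned comparison and some genes of the lists are not reported here.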

Additional observations from a re-analysis of the deposited data

How the results depend on the processing

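The direction of the Agt, Ace, Agtr1a, Enpep and Mas1 differences held under every alternative run for each that could change it. These were pseudocounts of 0.1 and 0.5, rescaled or quantile-normalized values, array weights, each heart left out, and both WT2368 and SRAKO2371 left out. Other filters and no variance trend were also run, but cannot change a difference that is fitted row by row. Sums over all rows of a symbol cannot either, because each measured member had 1 row. No member passed the adjusted threshold under any of these settings. Agt ranged from 0.23 to 0.44, Ace from 0.0089 to 0.25, Agtr1a from 0.02 to 0.36, Enpep from -0.27 to -0.08 and Mas1 from 0.02 to 0.24, the highest of these with a pseudocount of 0.1. A filter at an FPKM of 5 left out Enpep and Atp6ap2, and Mas1 met limma only without a filter. With each heart left out in turn, Atp6ap2 ran from -0.0059 to 0.18. Without both WT2368 and SRAKO2371 the Ace difference was 0.0089.

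The number of rows called was 1 with a pseudocount of 0.1, a filter at an FPKM of 5 or rescaled values, 0 without a filter or without both WT2368 and SRAKO2371, and 0 to 7 with each heart left out. The number at an unadjusted p under 0.05, 353, ran from 114 to 919. The neighbouring genes with a higher mean numbered 18 of 36 with a filter at an FPKM of 5, 18 of 65 without both WT2368 and SRAKO2371, and 18 to 38 with each heart left out. Of the rows that the deposited table annotates to the KEGG renin-angiotensin system, a list added after seeing the data, 11 were tested and 6 were higher. Apart from the filters, which change how many genes are tested, the cause was not tested. No paired analysis was run, because the labels give no litter or pairing of the hearts. The values carry no read counts, so precision was judged from the spread between 3 hearts a group.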

Other observations

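The KEGG annotation in the deposited table places 21 rows in the renin-angiotensin system, of which 11 passed the filter, 6 with a higher and 5 with a lower mean in SRAKO hearts and a median log2 difference of 0.0029. Genotypes did not overlap for 2 of the 11, against 8.05% of all rows (4.28% higher and 3.76% lower in SRAKO hearts). They were Agt, higher in SRAKO hearts, and a row of Lnpep, an aminopeptidase that binds angiotensin IV. That Lnpep row was at 1.63, 1.70 and 1.81 FPKM in SRAKO2365, SRAKO2371 and SRAKO2372, against 1.96, 2.34 and 1.84 in WT2368, WT2379 and WT2378. A second and stronger Lnpep row had means of 8.29 ± 0.278 in SRAKO hearts and 8.17 ± 1.21 in WT hearts (SD, n = 3 each).

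Some signalling genes fell into high and low hearts without regard to genotype. Rac1, a small GTPase of the NADPH oxidase, was at 30.5, 31.0 and 7.06 FPKM in SRAKO2365, SRAKO2371 and SRAKO2372, against 6.40, 31.8 and 7.78 in WT2368, WT2379 and WT2378. Arrb1, which encodes beta-arrestin 1, was at 3.12, 3.19 and 1.01 in SRAKO2365, SRAKO2371 and SRAKO2372, against 2.56, 3.65 and 0.596 in WT2368, WT2379 and WT2378.

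Mast cell markers, the cells that store chymase, summed over 6 genes to 5.63, 5.25 and 4.97 FPKM in SRAKO2365, SRAKO2371 and SRAKO2372, against 3.61, 4.21 and 5.57 in WT2368, WT2379 and WT2378, and the groups overlapped.

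Among markers of the endocardium, Cytl1 was at 32.4, 34.3 and 41.3 FPKM in SRAKO2365, SRAKO2371 and SRAKO2372, against 20.4, 24.1 and 28.0 in WT2368, WT2379 and WT2378, without overlap (limma, unadjusted p = 0.00554, adjusted p = 0.999). The other 3 endocardial markers overlapped between genotypes, Vwf with a higher and Npr3 and Plvap with a lower mean log2 level in SRAKO hearts. Cytl1 is named after its values were seen. Of all tested rows, 4.28% were higher in SRAKO hearts without overlap, and 3.46% had an unadjusted p under 0.05 in limma.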
